A study of Homo sapiens with 8 samples.

Results

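The subtelomeric CTCF peaks were the 1786 peaks of the control list on chromosomes 1 to 22 whose centre lay within 2 Mb of either end of the chromosome in the hg19 assembly, out of 47470 control peaks in all and 46054 on these chromosomes. The other 44268 control peaks of the same chromosomes, farther from an end, served for comparison. CTCF-bound DNA was immunoprecipitated and sequenced (ChIP-seq) from HT1080 cells, a human fibrosarcoma line, under 2 conditions: control cells, and cells exposed to 3 µM CBL0137 for 6 h. CBL0137 is a curaxin, an anti-cancer compound that binds DNA. Both conditions had 2 biological replicates, each with a ChIP and an input library, and the deposited peak lists pool them, so that no value per replicate stands behind any number below and the differences between the lists have no replicate check. A control peak was called kept if any peak of the treated list overlapped it and lost if none did, and a treated peak without any overlapping control peak was called new. A lost peak is one below the calling threshold in treated cells, which is not a measurement of zero binding.

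CTCF is a zinc finger protein that binds a long, GC-rich motif and, together with cohesin, anchors chromatin loops and separates neighbouring domains. Human chromosomes end in tandem telomeric repeats, next to which lie subtelomeric duplications, blocks of sequence that are copied among many chromosome ends, followed by single-copy DNA that is rich in GC and genes on many arms. CTCF is known to bind close to the promoters of TERRA, the RNA transcribed from the subtelomere into the telomeric repeats, and at the D4Z4 repeats of the end of 4q.

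The 2 peaks with the smallest coordinate distance to a chromosome end lay on one such duplicated stretch, which is therefore printed first, although it was picked after the values were seen. On 2p the peak at chr2:11401-11700 was centred 1.55 kb inside the first assembled base, behind 592 bases that hold telomeric CCCTAA hexamers, and on 5p the peak at chr5:13001-13450 was centred 3.225 kb inside it, behind a tract of 1806 bases. A search of the outer 50 kb of assembled sequence of 39 arms with the 300 bases under the 2p peak found a copy, over at least 200 aligned bases and with at least 80% identity, at 14 arms. Of these copies 11 lay within 5 kb of the assembled end. The lines give 150 bases of the stretch (74 on 5p, where the alignment ends) in GRCh37/hg19, for the 3 arms with a peak on the copy (2p, 5p and 20q) and for 3 arms without one (10q, 19q and 1p). Capitals mark the core of the CTCF motif (CCA, any 2 bases, AG, any 2 bases, GGC) on either strand with at most 1 mismatch among its 8 fixed letters.
2p, chr2:11531-11680, plus strand: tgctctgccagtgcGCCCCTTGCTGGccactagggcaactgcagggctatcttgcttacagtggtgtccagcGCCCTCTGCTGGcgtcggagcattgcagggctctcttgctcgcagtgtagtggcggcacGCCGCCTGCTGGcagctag
5p, chr5:13261-13334, plus strand: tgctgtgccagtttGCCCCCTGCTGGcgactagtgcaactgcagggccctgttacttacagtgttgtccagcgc
20q, chr20:62917427-62917576, minus strand: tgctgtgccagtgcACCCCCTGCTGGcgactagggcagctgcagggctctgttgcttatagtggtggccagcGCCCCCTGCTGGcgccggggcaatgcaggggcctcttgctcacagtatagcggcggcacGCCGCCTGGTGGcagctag
10q, chr10:135523321-135523470, minus strand: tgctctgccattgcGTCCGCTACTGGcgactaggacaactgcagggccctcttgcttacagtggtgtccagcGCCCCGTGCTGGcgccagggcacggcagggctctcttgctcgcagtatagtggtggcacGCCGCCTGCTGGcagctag
19q, chr19:59117812-59117961, minus strand: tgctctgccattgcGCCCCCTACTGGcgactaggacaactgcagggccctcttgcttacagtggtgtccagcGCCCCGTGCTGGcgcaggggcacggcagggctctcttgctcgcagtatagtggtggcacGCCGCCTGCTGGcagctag
1p, chr1:11213-11362, plus strand: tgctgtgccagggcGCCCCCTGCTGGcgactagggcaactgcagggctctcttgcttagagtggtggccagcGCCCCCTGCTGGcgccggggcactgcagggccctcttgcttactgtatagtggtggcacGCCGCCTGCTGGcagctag
All 14 copies held at least 1 exact core. In 12 of the copies 3 such sites followed each other at steps of 58 and 59 bases. The copy of 4p had 4 sites, and the part of the copy aligned on 5p had 1. Sites in such number were uncommon among the peaks: 3 or more of them in the 400 bases around the centre were found in 10.4% of the subtelomeric peaks, against 5.54% of the peaks farther in and 5.73% of all control peaks. The median GC content of the 500 bases around the centre was 57.0% near the ends and 45.2% farther in. The part of GC content in this count was not tested.

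Only the copies of 2p, 5p and 20q carried a peak, and each carried one in both lists. On 20q only the start of the printed line lies under the control peak, with the first marked site at the edge of the peak. The other marked sites of that line lie outside it. On 2p the fold enrichment over input was 43.0 in the control list and 42.6 in the treated list. On 5p it was 30.04 and 40.2, and on 20q, where the peak at chr20:62917551-62917850 lies in an intron of PCMTD2, 26.96 and 28.01. All 3 peaks were thus called in both conditions, although the 2p peak counts as lost if the overlap has to exceed 50% of the longer peak. The other 11 copies had no peak of either list on them. Close beside the 12p copy, however, the treated list had a new peak at chr12:94601-94700, with a fold enrichment of 11.9. The matching 150 bases of that copy lie at chr12:94247-94396, and 37.8% of its 75-base stretches were unique. The authors kept only reads with a single alignment, and the share of 75-base stretches of the copy that occur once in the genome was 100% on 2p and 5p and 93.3% on 20q, against 86.4% on 10q, 84.1% on 2q, 75.6% on 19q and lower values, down to 0% on 1p, 1q, 15q and 21q, on the arms without a peak. Whether CTCF sits on those 11 copies cannot be told from these lists, in which a missing peak is not a measurement of zero binding. Uniqueness was counted by exact matches, and its part in the missing peaks was not tested.

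**Figure D1:**
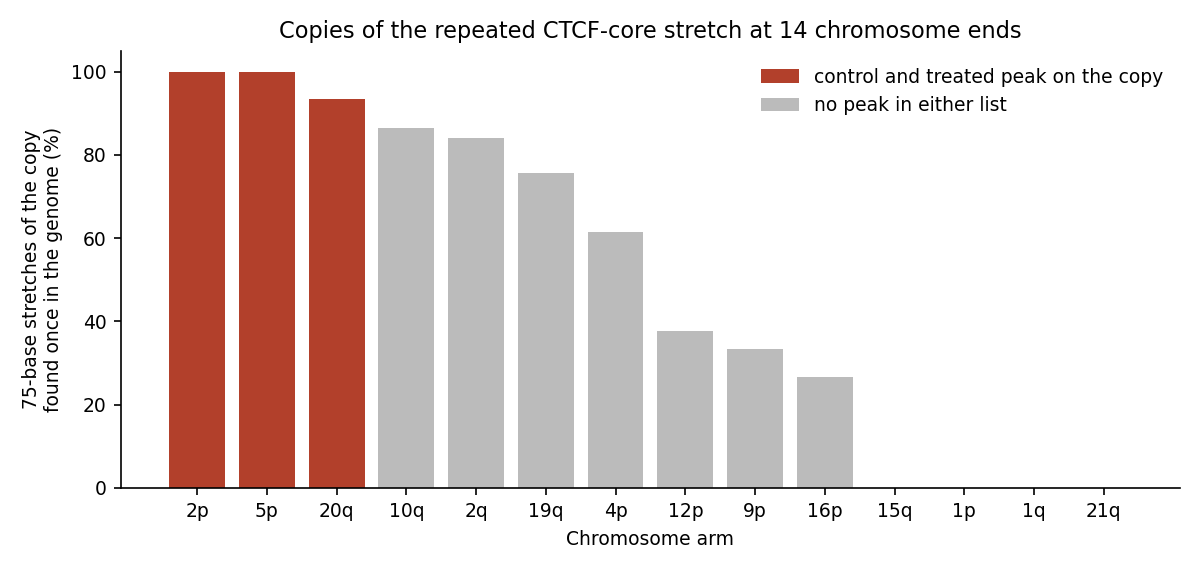
Bars give, for the 14 arms with a copy of the stretch under the outermost 2p peak, the share of its 75-base stretches that occur once in the genome (%). The red bars (2p, 5p and 20q, 93.3% to 100%) are the copies with a peak in both lists, and the 11 grey copies, 0% to 86.4%, had none on them.

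Peaks were sparse and sequence was less unique in the outermost part of the windows as a whole, and the part of uniqueness in the density was not tested. In the outermost 100 kb only 55.3% of 75-base stretches were unique, and the control list held 24 peaks there, or 9.85 peaks per Mb of assembled sequence. From 100 to 250 kb the unique share was 76.8% with 15.3 peaks per Mb, and from 250 to 500 kb it was 93.6% with 23.996 peaks per Mb. Beyond that point density was nearly level, at 25.9 peaks per Mb between 1.5 and 2 Mb. Over the whole 2 Mb windows there were 23.8 control peaks per Mb, above the 17.0 per Mb of the rest of the chromosomes. The 75 bases at the centre were unique for each of the 1786 peaks and for 44260 of the 44268 peaks farther in. Peaks were called only from reads with a single alignment, so that this was nearly fixed in advance. The peak nearest to the end of its arm lay between 11.55 kb (2p) and 840 kb (1p) from it, with a median of 160 kb over 39 arms, and the 5 short arms of the acrocentric chromosomes 13, 14, 15, 21 and 22, which have no assembled sequence in these windows, had none.

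The 6 peaks nearest to an end by coordinate, counting 1 per arm, were all kept. From the outermost assembled base the order differed, with 14q at 1.965 kb and 4q at 11.751 kb ahead of 17p at 13.475 kb. This 4q peak was lost, the nearest treated peak of the arm lying 182.351 kb from the assembled end. By coordinate, 2p and 5p were followed by the peak at chr17:13351-13600 in DOC2B, a calcium sensor of exocytosis. Its fold enrichment was 27.1 in control and 15.9 in treated cells, and like the 2p peak it counts as lost if the overlap has to exceed 50% of the longer peak. The peak at chr19:59092551-59092900, in the pseudogene CENPBD2P on 19q, was far stronger in control cells, at 60.3, and had 18.7 in treated cells. By fold enrichment it stood at the percentile 97.2 of the control list and at 26.6 of the treated list. Percentiles give the place of a peak within its own list, and since the lists hold 47470 and 29558 peaks, a shift between them is not by itself a change in binding. At chr21:48081151-48081450 in PRMT2, an arginine methyltransferase, the percentiles were 37.8 and 81.3. The sixth, at chr1:249200401-249200900, lay close to a start site of PGBD2, a gene derived from a transposase, and stood at 65.1 and 54.7. Of the peaks nearest to the end on each of the 39 arms, 11 were lost, which is 28.2% (Wilson 95% interval 16.5% to 43.8%) and close to the share of all subtelomeric peaks.

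Of the 1786 subtelomeric peaks, 511 were lost after CBL0137 and 1275 were kept. The lost share was 28.6% (Wilson 95% interval 26.6% to 30.8%), against 43.2% (42.8% to 43.7%) of the control peaks farther from an end and 42.7% of all control peaks on these chromosomes. The difference was -14.6 percentage points (Newcombe 95% interval -16.7 to -12.4). These intervals, here and below, cover counting error only, treat peaks as independent and say nothing of the spread between replicates. With the stricter rule of more than 50% overlap the lost shares were 38.6% near the ends, 51.0% farther in and 50.5% over all.

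Lost subtelomeric peaks were weaker, narrower and poorer in GC than kept ones. The median fold enrichment in control cells was 18.7 among lost and 35.2 among kept subtelomeric peaks, and the median width 200 and 350 bp. The GC content of the 500 bases around the centre had a median of 50.8% in the lost and 59.4% in the kept peaks. Peaks farther in showed the same order, with a median fold enrichment of 20.4 for lost and 34.7 for kept peaks, but a far lower GC content, 43.0% and 47.8%.

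The core of the CTCF motif was found as often near the ends as elsewhere. An exact core lay within the 400 bases around the centre of 23.96% of the subtelomeric peaks and 23.1% of the others, and of 23.2% of all control peaks, whereas windows 10 kb away had it in 2.63% and 1.30%. It was present in 29.3% of the kept and 10.8% of the lost subtelomeric peaks. Tandem copies of the telomeric hexamer TTAGGG, at least a pair, were found in 0 of the 1786 windows and in 5 of the 44268 windows farther in, or 0.0113%.

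The core was spelled in 89 ways among the 428 subtelomeric peaks that had it, and few of the peaks with one of the 5 commonest spellings were lost. These are written on the strand that reads CCA first, the reverse complement of the lines above. CCAGCAGGGGGC, the spelling under the 5p peak, occurred in 41 subtelomeric peaks, of which 1 was lost. CCACCAGGGGGC occurred in 36 and CCAGCAGAGGGC, found under the 2p peak, in 32, again with 1 lost peak each. Of the peaks with CCACCAGAGGGC 3 of 29 were lost, and of those with CCACCAGGTGGC 2 of 23. The spellings below these 5 made up 267 peaks, of which 17.6% (13.5% to 22.6%) were lost, and peaks without an exact core reached 33.6% (31.1% to 36.1%). Farther from the ends the order among the 5 spellings was different, with lost shares of 3.09%, 0.914%, 12.8%, 8.47% and 11.7% for the 5 spellings, 25.1% for the others and 50.1% without a core. The peaks also differed in strength, the median fold enrichment being 39.3 for CCAGCAGGGGGC, 35.5 for the rarer spellings and 28.0 without a core.

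At equal fold enrichment the subtelomeric peaks were still lost less often. All control peaks were divided into 10 groups of equal size by fold enrichment. Of the subtelomeric peaks 74.0% (67.1% to 79.9%) were lost in the group of lowest enrichment, against 88.9% of the others, and 2.95% (1.44% to 5.97%) against 7.62% in the group of highest enrichment. The subtelomeric share was the lower of the pair in 10 of 10 groups. Averaged over the groups as the subtelomeric peaks are distributed, the difference was -12.2 percentage points, little less than without the grouping.

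**Figure D2:**
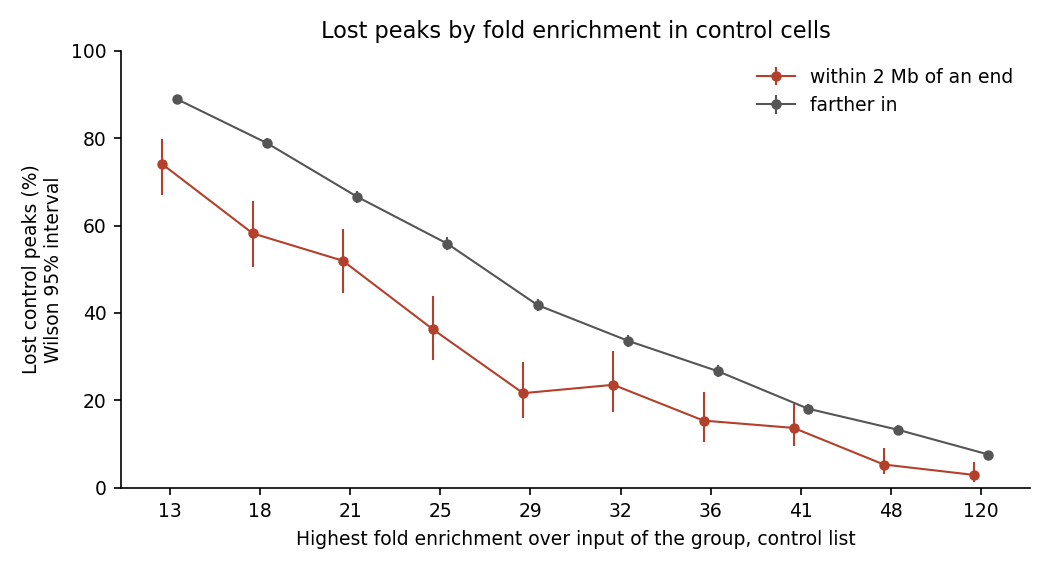
Points give the lost share of control peaks (%, with Wilson 95% intervals) in 10 groups of equal size by fold enrichment over input in control cells, whose upper limits stand on the horizontal axis. The subtelomeric peaks (red) lie below the peaks farther in (grey) in all 10 groups.

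In groups of similar base composition little of the difference was left. Subtelomeric peaks lay in GC-rich surroundings, with a median GC content of 52.6% over 100 kb against 42.3% for the others, and 967 of the 1786 fell into the top GC group of 10. There 21.8% (19.3% to 24.5%) of the subtelomeric and 22.1% (20.8% to 23.5%) of the other peaks were lost. That group runs from 51.7% to 64.5% GC, and GC content within it was not made equal. In groups of equal GC content of 100 kb the averaged difference was -0.584 percentage points, the subtelomeric share being lower in 6 of 10 groups, and with the GC content of the 500 bases at the peak it was -1.52 points, again lower in 6 of 10. When groups were matched on both GC content of 100 kb and fold enrichment, the difference was -3.99 points. GC content moved with gene density, the median number of protein-coding start sites within 100 kb being 2 near the ends and 1 elsewhere, and their separate parts in the lost share were not tested.

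Kept peaks were also placed within each list. The median percentile was 67.7 in the control list and 59.5 in the treated list for the 1275 kept subtelomeric peaks, and 66.3 and 52.7 for the 25130 kept peaks farther in. The percentile was the higher one in the treated list for 41.9% (39.2% to 44.6%) of the former and 34.9% (34.3% to 35.5%) of the latter. With lists of different length these are descriptions of position in a list, not of binding. Kept peaks also narrowed less often near the ends, where 49.4% were narrower in treated cells and 27.6% wider, against 63.3% and 14.4% farther in.

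Lost shares were also compared by the place of a peak in a gene. Among the subtelomeric peaks 42.0% lay in introns of protein-coding genes, of which 29.96% (26.8% to 33.3%) were lost, and 33.9% were intergenic, with 27.7% (24.3% to 31.4%) lost. Their intervals overlap. Promoter peaks, centred within 1 kb of a protein-coding start site, were more frequent near the ends, at 10.8% of peaks against 6.63%, and 18.2% (13.4% to 24.3%) of them were lost, against 28.5% (26.9% to 30.1%) of promoter peaks elsewhere. Without promoter peaks the lost shares were 29.9% near the ends and 44.3% farther in.

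The 39 arms ranged widely. On the end of 19p 8 of 87 peaks were lost, which is 9.20% (4.73% to 17.1%), on 14q 8 of 71, or 11.3% (5.82% to 20.7%), and on 8p 2 of 15, or 13.3% (3.74% to 37.9%). At the other extreme 16 of 30 were lost on 9p, or 53.3% (36.1% to 69.8%), 11 of 19 on 4q, or 57.9% (36.3% to 76.9%), and 13 of 21 on 6q, or 61.9% (40.9% to 79.2%). The intervals of 19p and 14q lie wholly below those of 9p, 4q and 6q, whereas that of 8p, which rests on few peaks, overlaps with those of 9p and 4q. Short-arm and long-arm ends hardly differed, with 29.6% (26.4% to 32.9%) and 27.9% (25.2% to 30.7%) lost. With the rule of more than 50% overlap the lost share was 18.4% on 19p and 23.9% on 14q.

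Each arm was also set against the rest of its own chromosome. The subtelomeric lost share was lower on 31 of 39 arms, and on 19 of them its interval lay wholly below the value of the rest. On 19p it was 9.20% against 21.6% for the rest of chromosome 19, and on 14q 11.3% against 43.6%. The 8 arms with a higher share were 19q, 20p, 10p, 18p, 2p, 9p, 4q and 6q, none of them with an interval wholly above the rest. The ends of a chromosome could differ from each other: on chromosome 19 the long arm lost 9 of 28 peaks, or 32.1% (17.9% to 50.7%), and its interval lies wholly above that of 19p.

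**Figure D3:**
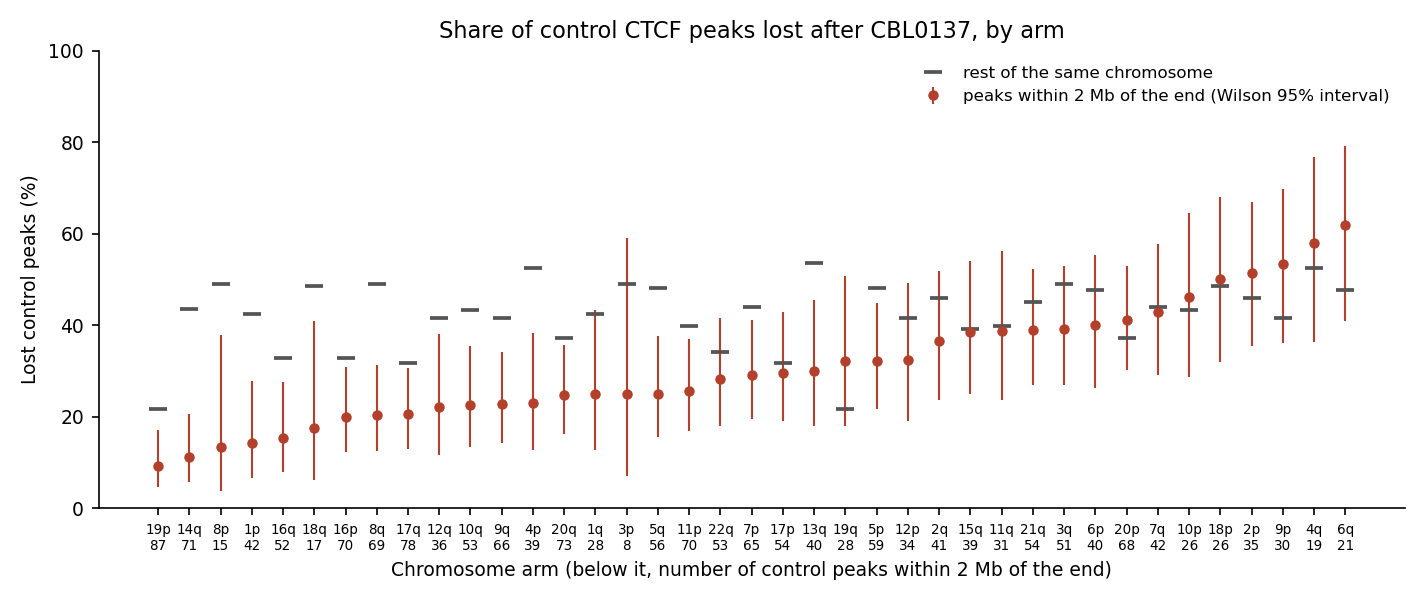
Points give the share of control peaks within 2 Mb of the end that were lost in treated cells (%, with Wilson 95% intervals), for 39 arms in ascending order, with the number of peaks under each arm, and dashes the share on the rest of the same chromosome. Points run from 9.20% on 19p to 61.9% on 6q and lie below the dash on 31 arms.

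Arms with GC-rich ends lost fewer peaks. Over the 39 arms, which share the same pooled libraries, the Spearman correlation coefficient between the lost share and the median GC content of 100 kb was -0.633, and between the lost share and the median fold enrichment -0.554, both given as a description. The end of 19p had a median GC content of 59.6%, and the ends of 9p, 4q and 6q had 41.8%, 41.1% and 43.1%. The end of 14q departed from this order, with a GC content of only 43.4% and few lost peaks. It contains the immunoglobulin heavy chain locus (chr14:106053226-107288019), a region singled out after its values were seen, whose 39 peaks had a median GC content of 41.4% over 100 kb, and 2 of which were lost, or 5.13% (1.42% to 16.9%). An exact core was present at 22 of these 39 peaks, and 27 lay within 1 kb of a V segment, one of the gene segments that are joined to encode the variable part of an antibody. Of the other 32 peaks of the 14q end, in surroundings with 56.6% GC, 6 were lost, or 18.8% (8.89% to 35.3%), and the intervals of the pair overlap.

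The lost share was compared by distance from the end. It was 33.3% (18.0% to 53.3%) in the outermost 100 kb, with 24 peaks, 30% (26.1% to 34.2%) between 0.5 and 1 Mb and 25.5% (21.8% to 29.5%) between 1.5 and 2 Mb. Outside the windows it was 30.9% from 2 to 3 Mb, 36.8% from 5 to 10 Mb and 45.8% beyond 20 Mb. The interval from 2 to 3 Mb, 27.8% to 34.1%, overlaps with that of the zone just inside the limit. The outermost 500 kb, with 31.8% (27.1% to 37.01%) lost, exceeded the 1.5 to 2 Mb zone by 6.39 percentage points (Newcombe 95% interval 0.183 to 12.7). Without chromosome 19 the interval was -0.704 to 12.3. At equal GC content of 100 kb this difference became -0.846 points, so that its direction depended on the composition of the groups compared. The median GC content was 45.8% in the outermost 100 kb and 53.8% between 1.5 and 2 Mb.

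**Figure D4:**
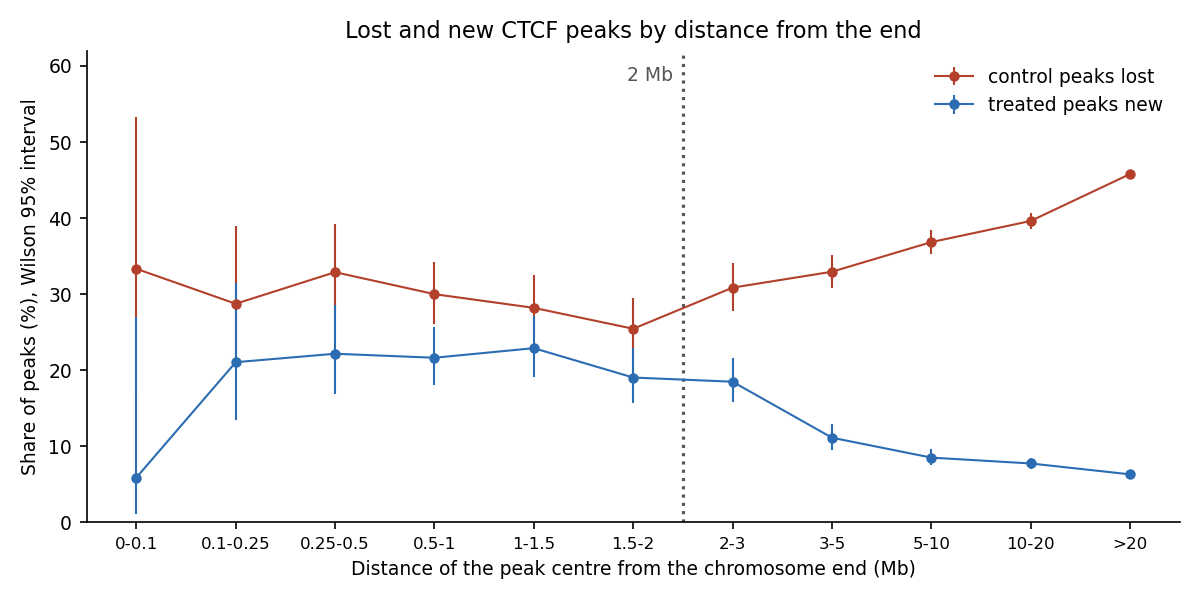
Lines give the share of control peaks that were lost (red) and of treated peaks that were new (blue), in %, with Wilson 95% intervals, by distance of the peak centre from the chromosome end in Mb. The lost share rises from 25.5% at 1.5 to 2 Mb to 45.8% beyond 20 Mb, while the new share falls from 19.04% to 6.31%.

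Peaks called only in treated cells were more frequent within 2 Mb of the ends than farther in, but the excess did not stop at that limit. The treated list held 1611 peaks within 2 Mb of an end, of which 340 were new, or 21.1% (19.2% to 23.2%), against 7.31% (7.01% to 7.63%) of the treated peaks farther in and 8.08% of all treated peaks on these chromosomes. That is 4.52 new peaks per Mb of assembled sequence near the ends and 0.762 elsewhere. In the outermost 100 kb only 1 of 17 treated peaks was new, or 5.88% (1.05% to 26.98%), an interval that includes both shares. From 2 to 3 Mb, just outside the windows, the new share was 18.5% (15.8% to 21.6%). This overlaps with the 19.04% (15.7% to 22.9%) between 1.5 and 2 Mb. New subtelomeric peaks were weak, with a median fold enrichment of 17.2 in treated cells against 31.8 for the subtelomeric treated peaks that overlapped a control peak. They lay in coding exons in 14.1% of cases against 5.43% of the shared peaks, and had an exact core in 19.1% (15.3% to 23.6%) against 28.6% (26.2% to 31.2%). New and shared peaks farther in stood in the same order, with a median fold enrichment of 17.0 against 28.8 and an exact core in 18.4% against 32.5%.

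On average over groups of similar GC content the new share near the ends still exceeded that of other regions, but not in every group. By GC content of 100 kb it was lower in groups 1, 3 and 6 from the lowest. There it was 0% against 3.70%, 0% against 4.36% and 5.08% against 6.70%, with 8, 11 and 59 subtelomeric treated peaks. By GC content of the 500 bases at the peak it was lower in groups 2, 3 and 5. Averaged over groups of equal GC content of 100 kb the excess was 9.07 percentage points, and over groups of equal GC content of the 500 bases at the peak 7.48 points, against 13.8 points (Newcombe 95% interval 11.8 to 15.9) without grouping. In the top GC group 259 of 1016 subtelomeric treated peaks were new, or 25.5% (22.9% to 28.3%), against 14.5% (13.3% to 15.7%) of the others. This group begins at 51.7% GC and holds most of the 1611 subtelomeric treated peaks, and GC content within it was not made equal. The part of such remaining GC differences in the excess was not tested. A peak is new if the control list lacks it, and control and treated lists differ in length and in their pooled libraries, so that the part of the threshold in these numbers was not tested beyond the alternative cutoffs given in the closing section.

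**Figure D5:**
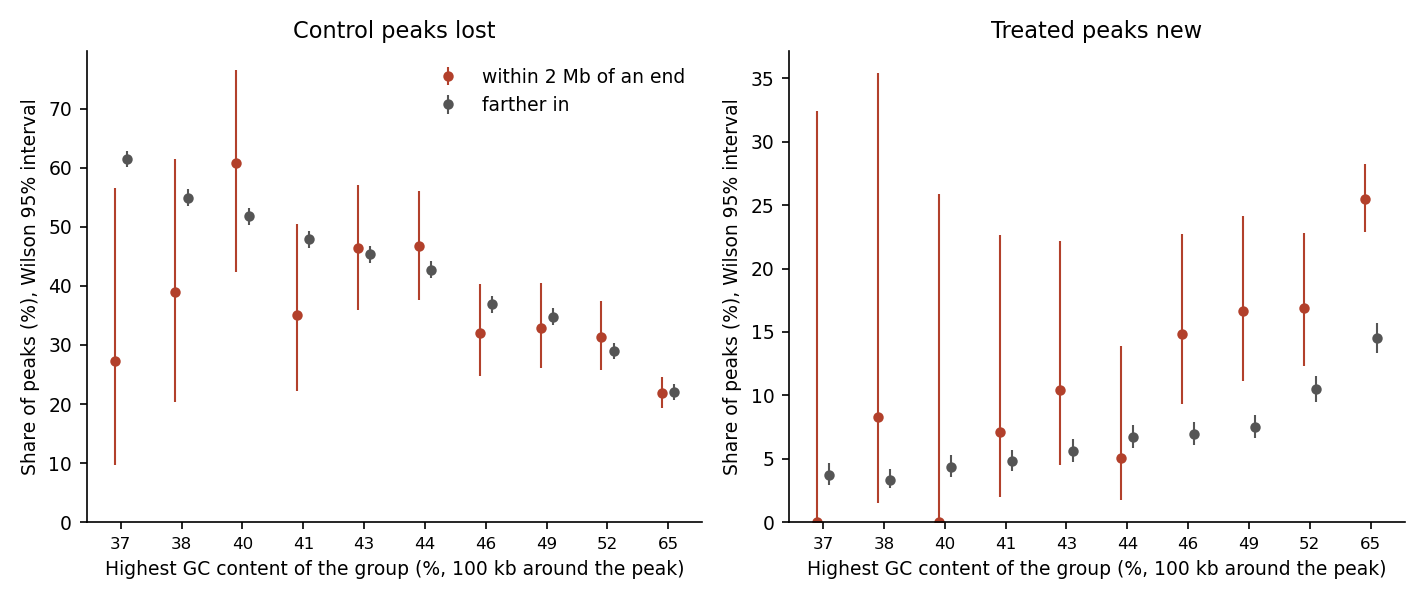
Points give the share of control peaks lost (left) and of treated peaks new (right), in %, with Wilson 95% intervals, in 10 groups by GC content of the surrounding 100 kb, whose upper limits stand on the horizontal axis. In the top group the lost shares are 21.8% near the ends (red) and 22.1% farther in (grey), while the new shares are 25.5% and 14.5%.

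New peaks were unevenly spread over the arms. The end of 19p had 39 of them among 118 treated peaks, which is 33.1%, and 17q had 23 of 85, or 27.1%. The ends of 3p, 4q, 9p and 11q had none, but held only 6, 8, 14 and 19 treated peaks. The new share was above that of the rest of the chromosome on 31 of 39 arms, and its Spearman correlation coefficient with the median GC content over the arms was 0.651. The strongest new peak, at chr14:105635451-105635850, with a fold enrichment of 68.8, lay in an intron of a noncoding gene, 489 bases from a start site of JAG2, a ligand of Notch receptors. The next, with 55.2, was at chr14:107113551-107113750, 90 bases from the immunoglobulin segment IGHV3-64. The third, with 51.6, lay in a coding exon of CTDP1, a phosphatase of RNA polymerase II, at chr18:77440001-77440350 and 373 bases from its start.

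The 5 strongest lost peaks came from 4q, 9p, 18q and 20p, of which 18q lost few peaks, 3 of 17. The highest control fold enrichment among them, 62.2, was that of chr4:190724201-190724450 in an intron of FRG1-DT, a noncoding gene next to FRG1 on 4q. In DOCK8, a guanine nucleotide exchange factor of immune cells, the peak at chr9:307001-307250 had 53.4, and in KANK1, a regulator of the actin cytoskeleton, the peak at chr9:613701-614200 had 49.9. The nearest treated peak to the DOCK8 peak was 197350 bp away, and the nearest to the KANK1 peak 31850 bp. The other lost peaks of this rank were chr18:77912201-77912450 in PARD6G-AS1, with 52.1, and chr20:1881001-1881350 in SIRPA, the receptor for CD47 on phagocytes, with 50.4.

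The strongest kept peaks were still among the stronger ones in treated cells. The peak at chr19:1945951-1946300 in CSNK1G2, a casein kinase, had 100.6 in control cells and 58.3 in treated cells, the percentile 94.6 of the treated list. At chr14:107020051-107020350, 162 bases from the segment IGHVII-49-1, it was 98.1 and 48.9, the percentile 87.2. In PRDM7, a relative of the meiotic histone methyltransferase PRDM9, the peak at chr16:90148301-90148750 had 89.4 and 66.0. The remaining ones, 863 bases from ATP9B on 18q (chr18:77139001-77139300, 80.2 and 53.4) and in the GATA cofactor ZFPM1 on 16q (chr16:88593851-88594200, 79.6 and 60.95), stood at the percentiles 91.4 and 96.0.

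The weakest kept peaks had a fold enrichment of 7.30 to 9.24 in control cells. They lay in LINC02982 on 5p, GALNT9 on 12q, RBFA on 18q, next to the noncoding RNA RENO1 on 17q, and in LINC01164 on 10q. In treated cells the RBFA peak, at chr18:77794601-77794800 and 312 bases from a start site, stood at the percentile 40.8 and the LINC01164 peak at 30.8, while the others stood at 7.87 or below.

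Just inside the limit of 2 Mb, at 1994.65 to 1998.45 kb, lay a pair of peaks in SMG6, which has a part in RNA decay and telomere maintenance, and 1 peak 3100 bases from the noncoding gene MINCR on 8q. Both SMG6 peaks were lost, with control fold enrichments of 8.44 and 37.5, and the third, with 43.7, was kept. The 3 peaks just outside, at 2000.07 to 2000.84 kb, had 35.8 to 53.5 and were kept.

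Named genes within the windows had peaks of both fates. The lines show 30 bases around the exact core, in capitals, for peaks of such genes, chosen after their values were seen to set lost, kept and new peaks side by side. The core was sought in the 400 bases around the centre of a peak, and in both TELO2 lines it lies outside the called peak.
TELO2, lost, chr16:1537694-1537723, minus strand: cgagaggagCCAGCAGCGGGCccgggaaag
TELO2, kept, chr16:1544720-1544749, minus strand: ggggttcagCCAGGAGCAGGCtctctctct
NKD2, lost, chr5:1010428-1010457, plus strand: cagacagccCCACCAGGTGGCcaggcccac
YES1, lost, chr18:730249-730278, minus strand: agaaaatagCCACTAGGAGGCtggggagtc
STK11, kept, chr19:1223259-1223288, minus strand: tgggattggCCACCAGAGGGCagaagctgt
DVL1, kept, chr1:1285324-1285353, plus strand: gcgcggaggCCACTAGAGGGCggcccagga
NSD2, kept, chr4:1901124-1901153, minus strand: ttattaccaCCACTAGGGGGCggaccctga
RAD52, kept, chr12:1059122-1059151, minus strand: ccgccaggcCCACCAGGGGGCagcagagat
LINC01164, kept, chr10:133610818-133610847, plus strand: tcctggttgCCAGCAGGGGGCcctctgcga
AGRN, new, chr1:990111-990140, minus strand: agcaggtgaCCAGCAGGGGGCccacacctg
The LINC01164 peak, with a fold enrichment of 9.24 in control cells, and the new AGRN peak, with 25.2 in treated cells, carry the same CCAGCAGGGGGC as the 5p peak. The same 12 letters thus went with peaks of different strength, the AGRN one being called only in treated cells. Of the 41 subtelomeric control peaks with this spelling 1 was lost.

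The list of telomere maintenance genes, made up of TERT, TELO2 and RTEL1, had 3 peaks, 2 of them lost, and did not include SMG6 with its pair of lost peaks. TERT encodes the catalytic subunit of telomerase, and its single control peak, at chr5:1296551-1296650 and 1417 bases upstream of the start, had a fold enrichment of only 5.90, at the percentile 0.0779 of the control list, and was lost. The treated list had 3 new peaks in TERT, with fold enrichments of 5.34 to 11.003. TELO2, which stabilises kinases of the ATM and mTOR family, lost the peak at chr16:1537551-1537650 (14.4), which lies upstream of its start in a coding exon of another gene, and kept the one at chr16:1544451-1544650 (22.8 in control and 17.7 in treated cells), which also counts as lost with the rule of more than 50% overlap. RTEL1, a helicase of telomeres, had no control peak in its body or the 10 kb upstream.

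Of 29 peaks at genes of signalling and growth 5 were lost, or 17.2% (7.60% to 34.5%), an interval that includes the 28.6% of all subtelomeric peaks. With the rule of more than 50% overlap it was 41.4%, beside 38.6% of all subtelomeric peaks. The 3 peaks of AXIN1, the scaffold that holds beta-catenin in check, were kept. So were the 3 of DVL1, a transducer of Wnt signals, but their centres lay 250 bp from the nearest treated centre, and 2 of them overlapped the same treated peak. If centres have to lie within 200 bp, these 3 count as lost and the share of the list is 27.6%. The AXIN1 promoter peak, at chr16:402551-402850, had 60.9 in control and 63.8 in treated cells. NKD2, an inhibitor of the same pathway, kept its promoter peak, with 44.7 and 38.7, lost the intronic one at chr5:1010401-1010500, with 20.4, and gained 2 new peaks. STK11, a tumour suppressor kinase on 19p, had 7 control peaks, of which 6 were kept. The one lost was at its start, chr19:1177551-1177800, with 23.8, while the intronic peak at chr19:1194451-1194850 had 69.3 in control and 92.3 in treated cells. The other lost peaks of the list were single ones in IRF4 (31.8), ULK1 (8.02) and YES1 (13.2), the last with a second peak that was kept. HRAS, FGFR3 and 5 other genes of the list had no control peak.

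Genes of chromatin and DNA repair lost 6 of 13 peaks, or 46.2% (23.2% to 70.9%), an interval that includes the 28.6% of all subtelomeric peaks. BRD9, a bromodomain protein of a remodelling complex, RECQL4, a DNA helicase, and KDM5A, a histone demethylase, lost their only peak, with control fold enrichments of 6.92, 9.18 and 21.3. Those of BRD9 and RECQL4 lay upstream of the start, inside neighbouring genes. A new treated peak, with 20.4, was centred 1000 bp from the lost RECQL4 peak. EHMT1, a histone methyltransferase, kept 3 of 5 peaks and gained 3. Both peaks of NSD2, another histone methyltransferase, were kept, as was 1 of the pair in RAD52, a recombination protein, at chr12:1058951-1059450, with 36.9 in control and 51.6 in treated cells.

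At genes of the extracellular matrix 2 of 14 peaks were lost, or 14.3% (4.01% to 39.9%), an interval that includes the 28.6% of all subtelomeric peaks, and 50% with the rule of more than 50% overlap, beside 38.6% of all subtelomeric peaks. The lost ones lay in MMP17, a membrane-bound metalloproteinase, with 27.7, and COL6A2, a collagen VI chain, with 17.6. The peak at the start of COL6A2, chr21:47517851-47518000, had 12.1 in control and 52.6 in treated cells, at the percentiles 6.87 and 90.8 of the lists. In AGRN, which encodes the basement membrane proteoglycan agrin, 3 control peaks were kept and 3 new ones were called. Among 4 mucin genes only MUC5B had a control peak, which was kept at 14.5 in control and 15.9 in treated cells but counts as lost under the rule of more than 50% overlap.

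The duplicated gene families of chromosome ends were nearly free of peaks. There were 61 annotated entries in the windows, some of which share a name. They include the DUX4 copies of the D4Z4 repeats, the olfactory receptors named OR4F and the WASH and DDX11L genes. Of these entries 60 had no control peak in their body or the 10 kb upstream. The exception was FRG1 on 4q, whose promoter peak at chr4:190861751-190862050 was kept with 46.1 in control and 45.5 in treated cells, on an arm that lost 11 of its 19 peaks. Near the pseudogene DDX11L8 on 12p, beside the 12p copy of the 2p stretch, a new peak was called, with 11.9 in treated cells. As at the copies of the 2p stretch, reads with more than 1 alignment had been removed by the authors, so that the absence of a peak at these families is not a measurement of absent binding. The share without a peak over all genes of the windows was not computed. In the other lists the genes without a peak ranged from 1 of 8 for chromatin and DNA repair to 3 of 4 for mucins.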

How the data were processed

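Alignment to hg19 was done by the authors with Bowtie2 2.2.3. Duplicates and reads that aligned at more than 1 place were taken out (SAMtools 1.5), and the authors called peaks with PePr (p-value cutoff 0.05, windows of 100 bp) on both replicates of a condition together. The deposited lists give for each peak the fold enrichment of ChIP over input (a ratio), a p-value and an FDR, all computed by the authors, of which the p-value was not used. The 2 deposited lists of differential sites hold the authors' fold, p-value and FDR of one condition over the other and were not used, and the signal tracks were not analysed here. The peak lists give no depth, and the lists pool replicates, so that no error between replicates could be computed. The labels describe paired-end reads and the methods single-end reads.

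Kept meant an overlap of at least 1 bp, in place of the rule of more than 50% of the longer peak in the study's methods, which is given as an alternative. Shares have Wilson 95% intervals and differences Newcombe intervals. No p-value was computed, since peaks are not replicates, and fold enrichments of different lists were not divided by each other. Sequence and annotation came from GRCh37 and GENCODE v44lift37, and no peak exceeded a chromosome end. GC content, cores and uniqueness of 75-base stretches were computed from that sequence. Copies of the 2p stretch were sought with blastn. Differences at equal GC content or fold enrichment are averages over 10 groups, weighted by the subtelomeric peaks (for both measures together, 10 by 10). Within a group these measures were not made equal.

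Peaks named are the 6 nearest to an end, the 5 strongest lost, the 5 strongest and 5 weakest kept, 3 on each side of the limit and the 3 strongest new ones, with the 3 arms of highest and lowest lost share among those with at least 10 peaks, and the gene lists (gene body or 10 kb upstream). The members and lists were chosen with earlier results of these data known, and the copies of the 2p stretch, the spellings of the core, the immunoglobulin locus and the sequences of gene peaks were added after the values were seen. Scripts ran on Python 3.11.15 with matplotlib 3.10.9, pysam 0.24.0, scipy 1.17.1, pandas 2.3.3 and numpy 2.4.6, sequence was read with samtools 1.23.1, and the routines were tested on simulated data.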

Additional observations from a re-analysis of the deposited data

How the results depend on the processing

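No paired analysis was possible because each list pools both replicates, and for the same reason no replicate could be left out. Windows of 1 Mb and 5 Mb gave 826 and 4317 subtelomeric peaks with 155 and 612 new ones. The difference in lost share was -12.1 points with 1 Mb, and with 5 Mb the lost share was 30.8% and the excess of new peaks 10.2 points. An FDR of at most 1e-05 left 181 new peaks and an excess of 10.8 points. With more than 50% overlap the lost share was 38.6%, the difference -12.4 points, and 514 peaks were new, an excess of 11.7 points. When the control list was limited to its strongest peaks, equal in number to the treated list, the lost share was 12.5% and the difference -12.1 points. At equal fold enrichment the difference was -12.2 points, at equal GC content of 100 kb -0.584, at equal GC content of the peak -1.52 and at both equal GC content of 100 kb and fold enrichment -3.99. The excess of new peaks was 9.07 and 7.48 points at equal GC content of 100 kb and of the peak. The outermost 500 kb minus the zone from 1.5 to 2 Mb turned to -0.846 points at equal GC content of 100 kb. Alternatives for the new share, those at equal GC content of the peak or of both measures, the one for the outermost 500 kb at equal GC content, and those without chromosome 14 were added after seeing the data. The number of arms below the rest of their chromosome was between 27 and 34 of 39 in all alternatives. Measuring from the outermost assembled base, which left out the 5 acrocentric short arms, gave 1826 peaks and a difference of -14.7 points. Of the control peaks named for their distance from the end or their fold enrichment, 4 changed fate with more than 50% overlap and none with more than 25% or with centres within 200 bp.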
